A study of Homo sapiens with 2 samples.

Results

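Shared JUNB peaks inside genes are the places within protein-coding genes at which a JUNB peak was listed both in untreated and in etoposide-treated fibroblasts. A peak of the untreated list on chromosomes 1 to 22 and X was taken when it overlapped a peak of the etoposide list by at least 1 bp, and when its summit lay inside a RefSeq protein-coding gene and more than 1 kb from every protein-coding gene boundary. Of the 32550 untreated peaks on these chromosomes, 16610 overlapped an etoposide peak, and 8135 of those were inside genes by this rule (49.0% of the shared peaks). They lay in 3949 protein-coding genes, called host genes below. The members were thus chosen by the presence of a listed peak in both libraries and by the position of the untreated summit, so neither is a finding about them.

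The study profiled JUNB binding by CUT&RUN in IMR-90 cells, which are human lung fibroblasts. In CUT&RUN an antibody guides a nuclease to cut out the DNA around a bound protein. One group had no treatment. The other was treated with etoposide, a drug that traps topoisomerase II on cut DNA and, as a source of broken chromosomes, can drive cultured fibroblasts into senescence; its dose and duration are not given in the sources used here. The same JUNB antibody was used for both groups, and neither label names a genetic change. Each condition has 1 library and no control library was analysed here, so no difference between the conditions has a replicate check, no test of treatment was made, and all intervals cover counting error only.

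JUNB is a member of the AP-1 family, transcription factors with a basic leucine zipper that bind DNA as dimers of a JUN protein with a FOS, ATF or another JUN protein. The classical AP-1 element is TGAGTCA, or TGACTCA on the other strand. Below, AP-1 element means the wider pattern TGANTCA, read alike on both strands, which also takes in TGAATCA and TGATTCA. In fibroblasts AP-1 is known for binding enhancers far from promoters, often beside TEAD and RUNX factors, at genes of the matrix, adhesion and the cytoskeleton, and for taking part in the inflammatory gene programme of senescent cells. Many such enhancers lie in the long introns of genes. Whether a summit here lay in an exon or an intron was not analysed.

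The sequences below show the AP-1 element at members whose neighbourhood has a RefSeq sequence, that is, members near a listed start of a transcript. They are 67-base stretches on the plus strand of GRCh38.p14, centred on 1 element, with every TGANTCA in capitals. SMAD3, CREB5, PALLD and KCNMA1 have the element before an inner start of the host gene itself, and the KCNMA1 stretch also spans the start of the non-coding gene KCNMA1-AS3. In TIMP2, DLGAP1, KIRREL3 and JAZF1 it lies before the start of a non-coding RNA gene inside the host. They were chosen for their host genes after their values had been seen, and a match is a description of the sequence, not proof of a site.
SMAD3, chr15:67125656-67125722: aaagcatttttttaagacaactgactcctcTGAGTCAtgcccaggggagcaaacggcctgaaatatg
CREB5, chr7:28686059-28686125: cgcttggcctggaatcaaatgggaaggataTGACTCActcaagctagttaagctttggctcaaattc
PALLD, chr4:168832013-168832079: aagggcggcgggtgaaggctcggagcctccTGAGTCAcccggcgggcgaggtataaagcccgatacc
KCNMA1, chr10:77350847-77350913: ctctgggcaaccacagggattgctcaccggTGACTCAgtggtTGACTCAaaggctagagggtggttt
TIMP2, chr17:78862149-78862215: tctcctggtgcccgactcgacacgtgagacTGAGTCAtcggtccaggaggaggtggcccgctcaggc
DLGAP1, chr18:3603560-3603626: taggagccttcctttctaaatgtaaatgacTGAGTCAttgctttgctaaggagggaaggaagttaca
KIRREL3, chr11:126992311-126992377: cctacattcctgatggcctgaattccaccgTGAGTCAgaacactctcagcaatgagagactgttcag
JAZF1, chr7:28037399-28037465: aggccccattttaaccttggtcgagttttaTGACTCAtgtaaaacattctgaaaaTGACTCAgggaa

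In none of these stretches did the element lie at the summit, the position of the highest pileup. The centre of the SMAD3 element lay 165 bp from the untreated summit and 180 bp from the etoposide summit, on the same side of both. In CREB5 the distances were 165 and 147 bp, in TIMP2 107 and 118 bp, and in the DLGAP1 stretch shown 144 and 125 bp. The first KCNMA1 element lay 194 bp from the untreated and 169 bp from the etoposide summit. The PALLD element was 215 bp from the untreated summit, but the etoposide summit of that pair lay farther off on the same side, 634 bp from it. The KIRREL3 element lay between the summits of 2 members, 291 bp after one and 171 bp before the other. In JAZF1 the first element of the stretch shown lay 189 bp after the summit of one member and 239 bp before the summit of the next.

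The same displacement appeared over all members with sequence. RefSeq windows of 300 bases (250 before to 50 after a start) reached within 400 bp of the untreated summit of 201 members, most of them only in part. Within 80 bp of the summit these sequences held 4 AP-1 elements, or 3.97 per 10 kb of sequence (95% Poisson interval 1.08 to 10.2). From 80 to 240 bp they held 98, or 37.8 per 10 kb (30.7 to 46.1), and from 240 to 400 bp 16, or 7.57 per 10 kb (4.33 to 12.3). The highest bin ran from 160 to 200 bp, with 61.4 per 10 kb. All window sequence together held 2.90 elements per 10 kb, and 7.68% of the 34961 windows held at least 1. These windows include starts at gene boundaries, where no member can lie, so the value is not matched to the members. TGAGTCA and its reverse complement alone gave 3, 81 and 6 elements in the same bands, or 2.98, 31.3 and 2.84 per 10 kb. Their rate in all window sequence was 1.82 per 10 kb. A single element near 2 members is counted once for each.

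The etoposide library placed the elements in the same way. Around the etoposide summits of the members there were 8 elements within 80 bp (6.90 per 10 kb), 99 from 80 to 240 bp (38.8 per 10 kb) and 12 from 240 to 400 bp (6.41 per 10 kb), with 65.1 per 10 kb from 160 to 200 bp. Within 300 bp of the untreated summit 77 members had an element, in 99 combinations of a member and an element. The median distance was 185 bp from the untreated and 172 bp from the etoposide summit, and in 33 of the 99 the element was inside the listed untreated peak. For shared peaks at gene boundaries the rates in the 3 bands were 3.71, 12.5 and 1.82 per 10 kb, and between genes they were 6.99, 47.4 and 15.3 per 10 kb. A window of 50 bp to either side of the summit, the width first chosen for this count, had an element in 1 of the 34 members with full sequence, 2.94% (Wilson 95% interval 0.521% to 14.9%).

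**Figure D1:**
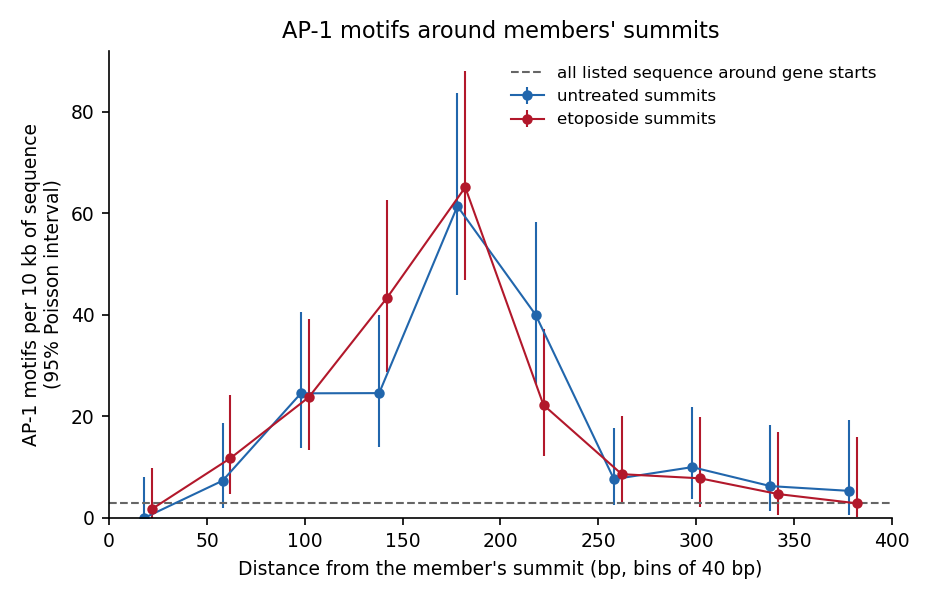
AP-1 elements (TGANTCA) per 10 kb of listed sequence (y axis) against distance from the member's summit in bins of 40 bp (x axis), with 95% Poisson intervals. The rate was highest at 160 to 200 bp from the summits of both libraries, 61.4 and 65.1 per 10 kb, against 2.90 per 10 kb in all listed sequence around gene starts (dashed line). The dashed line includes starts at gene boundaries, where no member can lie, and is not matched to the members.

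Close pairs occurred inside genes as in the whole untreated list. Of neighbouring members, 359 pairs had untreated summits 250 to 500 bp apart, with a median of 394 bp, and none were closer than 250 bp; untreated peaks are at least 202 bp wide, which limits how close separate summits can be. Another 77 pairs were 500 to 1000 bp apart. The untreated list as a whole, 32550 peaks, had 2241 neighbours at 250 to 500 bp, proportionally more. In a member pair both peaks had to be members. The 359 close pairs hold 717 members, 8.81% of all, and in 193 of them both untreated peaks were matched to the same single etoposide peak. Members within 500 bp joined into 1 place left 7776 places. The middle of the pair, within 50 bp, had full sequence for 5 member pairs, and 2 of the 5 held an AP-1 element. Over all 2241 close pairs of the untreated list, inside genes or not, 72 had sequence and 23 held the element (31.9%), against 2.85% of the middle 101 bases of all windows.

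The distance between the untreated and the etoposide summit of a member had 2 humps. The median was 41 bp, and 57.1% of members had summits within 50 bp of each other. Members 150 to 200 bp apart were few (162), and from there the count went up again to 387 at 300 to 350 bp. In all, 1338 members (16.4%) had summits more than 200 bp apart, with a median of 319 bp. Their untreated peaks were wider, with a median of 474 bp against 339 bp for the members within 50 bp. The shared peaks between genes had the same share over 200 bp, 16.4%, and those at boundaries had 13.7%.

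**Figure D2:**
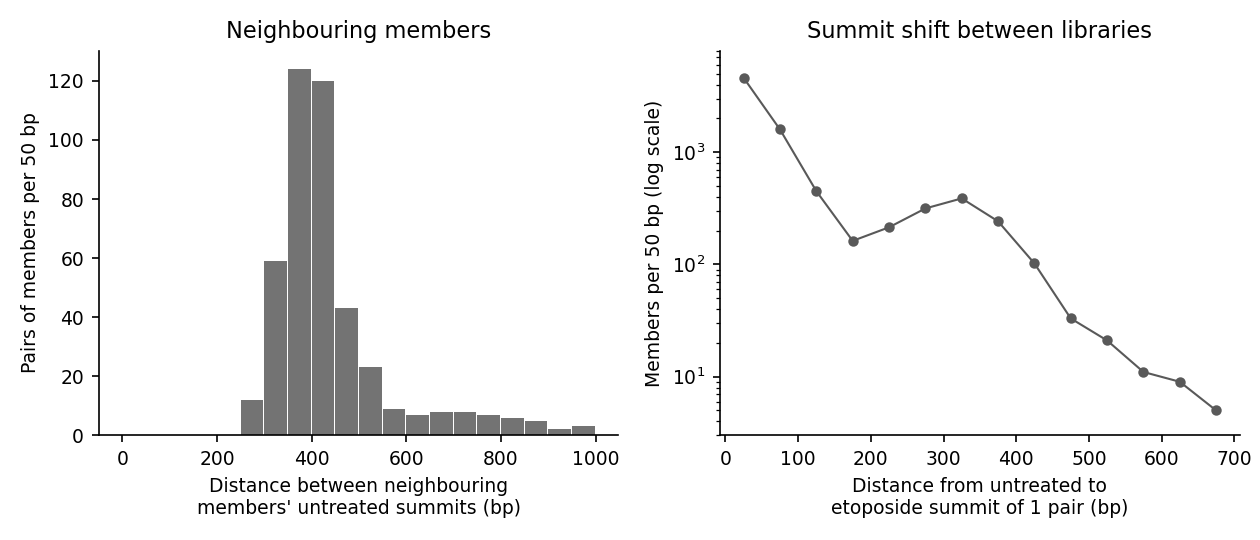
Left, the number of neighbouring member pairs per 50 bp of distance between their untreated summits; right, the number of members per 50 bp of distance between the untreated and the etoposide summit of a pair, on a log scale. Neighbours peaked at 350 to 450 bp with none below 250 bp, and the summit distance had a second rise at 300 to 350 bp (387 members).

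The members spread over many genes with few in each. Of the 18676 protein-coding genes that have any sequence more than 1 kb from every boundary (gene interior), 3949 had a member (21.1%). A single member was found in 2181 host genes, 2 in 824 and 3 in 387. At the other end 369 host genes had 5 or more members and together held 2558 of them (31.4%), and 47 had 10 or more. Gene interior covers 1218.87 Mb, so members had a mean density of 6.67 per Mb. Host genes were long: their median length was 104 kb (quartiles 52.3 and 198 kb), against 19.6 kb for genes with interior and no member.

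The density of members differed with gene length. The density was 3.42 members per Mb in genes with up to 5 kb of interior, climbed to 7.83 per Mb at 100 to 200 kb and 7.76 per Mb at 200 to 500 kb, and was 4.66 per Mb in genes with more than 500 kb (95% Poisson interval 4.40 to 4.93). Of the 310 genes in that largest class, 71 had no member. Among them were RBFOX1, a neuronal splicing regulator of 2474 kb, CSMD1 with 2060 kb, the cadherin gene PCDH15 with 1825 kb and AGBL4 with 1501 kb. DPP10, LINGO2, PTPRT and DPP6, all known for expression in neurons, and the large fragile-site gene WWOX (1113 kb) had no peak of either library in their interior.

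**Figure D3:**
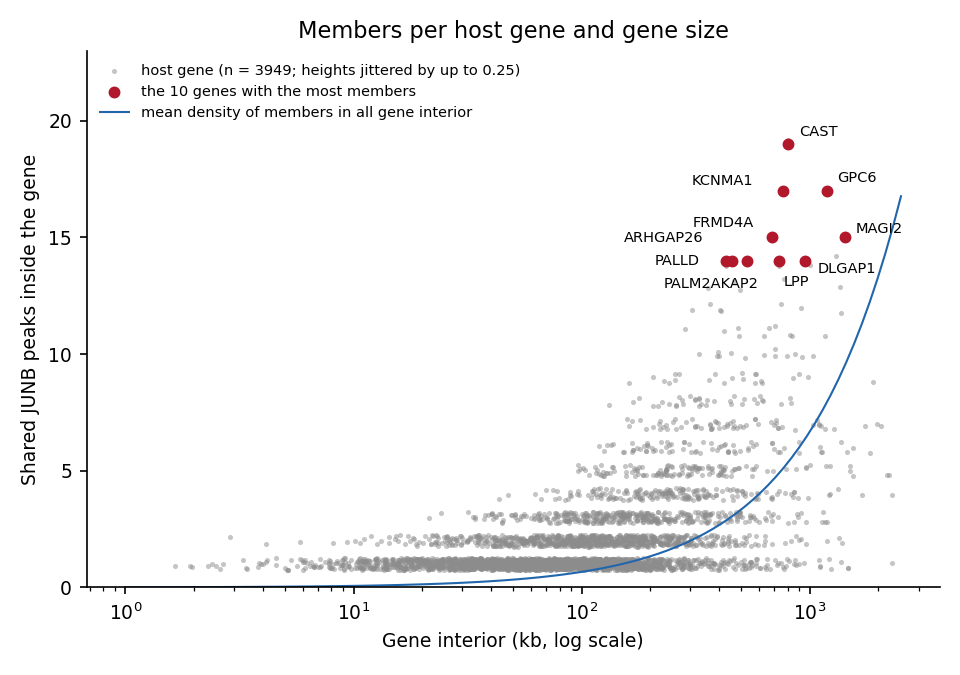
Members per host gene (y axis, 1 point per host gene, heights jittered) against its interior in kb (x axis, log scale); the line is the mean density of 6.67 members per Mb. The 10 genes with the most members (red) hold 14 to 19 each, on 427 kb (PALLD) to 1435 kb (MAGI2) of interior.

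Among the 10 host genes with the most members, CAST, which encodes the calpain inhibitor calpastatin, had 19 members, with untreated pileups of 8 to 42 (median 20) and etoposide pileups of 9 to 28 (median 18). Pileup here is the number of fragments or reads that overlap at the summit. RefSeq outlines CAST over 813 kb, from 1 early start. The first of its other 4 listed starts lies 700.0 kb further on, and 17 of the 19 members were before it. KCNMA1, the pore subunit of the BK potassium channel, had 17 members, and so did GPC6, a glypican that carries heparan sulfate on the cell surface.

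FRMD4A, a FERM-domain scaffold of epithelial polarity, and MAGI2, a scaffold of cell junctions, had 15 each. The other 5 had 14 each: LPP and PALLD, proteins of focal adhesions and stress fibres, PALM2AKAP2, an anchor of protein kinase A, ARHGAP26, a GTPase-activating protein, and DLGAP1, a postsynaptic scaffold. Their density differed, from 10.5 per Mb in MAGI2 to 32.8 per Mb in PALLD. The densest host genes with at least 3 members were short ones: NUBP1 (3 members on 21.5 kb of interior), TRMT10B (3 on 24.1 kb), DENND10 (3 on 31.9 kb), LRP11 (4 on 43.6 kb) and RARRES1 (3 on 33.6 kb). The shortest host genes were PPP1R3D (3.64 kb), TMEM107 (3.92 kb) and FCER1G (3.95 kb), with 1 member each.

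KCNMA1 shows how members of 1 gene differ. Its strongest member, chr10:77505408-77506461, had an untreated pileup of 88 and an etoposide pileup of 52. The weakest by untreated pileup, chr10:77195269-77195536, had 14 and 16. The member beside the elements printed above, chr10:77350535-77350808, had 33 and 32. The etoposide value was below the untreated one at 16 of the 17 members, which was also so for most shared peaks, since the median ratio of etoposide to untreated pileup over all 16610 shared pairs was 0.778. Ratios are therefore given divided by this median and called scaled ratios. The scaled ratio of the KCNMA1 members ran from 0.482 to 1.47, with a median of 0.808.

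Position within the gene was nearly even. Members were a median of 34.4 kb from the nearest protein-coding boundary, with 10% closer than 5.13 kb and 10% farther than 165 kb. The deepest were 2 weak peaks in CNTNAP2, a neuronal adhesion gene: 1 was 1020 kb from a boundary, with pileups of 8 untreated and 6 etoposide, and the other 928 kb, with 9 and 9. Where RefSeq windows gave the strand (6923 pairs of a member and a host gene), cutting each gene into 3 equal parts put 33.7% of members in the first part, 34.5% in the middle and 31.9% in the last. Density at 1 to 2 kb from the gene start was 7.67 per Mb (95% Poisson interval 6.29 to 9.26) and at 1 to 2 kb from the gene end 4.91 per Mb (3.82 to 6.21). At 50 to 100 kb it was 7.30 per Mb from the start and 7.95 per Mb from the end.

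Members were denser around starts inside genes than in the rest of the interior. Within 1 kb of a listed start of a protein-coding transcript, but still more than 1 kb from gene boundaries, 157 members gave 17.1 per Mb (14.5 to 19.9), against 6.61 per Mb elsewhere in windowed chromosomes. Within 1 kb of a listed start of a long non-coding RNA (lncRNA) gene 116 members gave 18.7 per Mb (15.4 to 22.4), against 6.62 elsewhere. In 57 members the summit itself was inside a 300-base start window, in 33 of them at a coding start only and in 22 at an lncRNA start only. Among these were inner starts of SMAD7, an inhibitor of TGF-beta signalling, with pileups of 19 untreated and 13 etoposide, and of LTBP1, which stores latent TGF-beta in the matrix, with 18 and 13. CCND3, a cyclin of the G1 phase, had 34 and 14 at such a start.

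Other genes overlapped some members. The summits of 652 members (8.01%) were also inside an lncRNA gene, with median pileups of 19 untreated and 15 etoposide, close to the 19 and 14 of all members. Only 5 untreated peaks touched a microRNA hairpin: MIR583 in CAST, MIR3611 in CUL2, MIR4295 in VTI1A, MIR6073 in SOX6 and MIR4741 in RBBP8. Of 8135 members 158 lay in 2 or more protein-coding genes at once, and 1 of these lay in 22 genes of the clustered protocadherin gamma locus. By chromosome the density was lowest on X, at 1.91 per Mb (1.55 to 2.34). The lowest autosome was 19 at 3.98 per Mb and the highest 10 at 7.78 per Mb.

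Members had median pileups equal to or near those of other shared peaks. Their untreated pileup had a median of 19 (quartiles 14 and 26, range 5 to 112) and their etoposide pileup a median of 14 (11 and 19, range 5 to 111). The shared peaks between genes had medians of 19 and 15, and those at boundaries 17 and 12. Untreated peaks inside genes that overlapped no etoposide peak were weaker, with a median of 12 over 7521 peaks. Inside genes 51.96% of untreated peaks were shared (Wilson 95% interval 51.2% to 52.7%) and 64.8% of etoposide peaks (64.0% to 65.7%). Between genes these shares were 55.1% and 64.4%, and at boundaries 27.8% and 67.9%.

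The strongest member in the untreated library was in DUX4, on chr4:190179211-190179974, with a pileup of 112 untreated and 103 etoposide. DUX4 is a homeobox gene in a repeat array near the end of chromosome 4, so reads of near-identical copies may be joined there and the height is uncertain. The next was the KCNMA1 member above. PITPNM2, a phosphatidylinositol transfer gene, had 87 untreated and 36 etoposide. IL1RAPL1, a synaptic adhesion gene, had 85 and 48, and COL15A1, a basement membrane collagen, had 83 and 65. ZNF469, a gene linked to collagen in the cornea, had 82 and 54. EPG5, an autophagy tether, had 81 and 47, and RAP1GDS1, a regulator of small GTPases, had 81 and 64. MYPN, a sarcomere protein that binds actin partners, had 79 and 58, and PLB1, a phospholipase, had 79 and 54. The etoposide value was the lower in all 10, which were chosen for a high untreated value and stand beside a common ratio of 0.778. After scaling, DUX4 (1.18), RAP1GDS1 (1.02) and COL15A1 (1.01) were above 1.

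The etoposide order shared DUX4, COL15A1 and RAP1GDS1 with the untreated top 10. It was headed by a member of LOC102724250 with 47 untreated and 111 etoposide, and LOC102724250 had another with 32 and 90. The summits of both lay in pseudogene copies of mitochondrial genes, MTND2P28 and MTATP6P1. RPS29, a ribosomal protein gene, had 28 untreated and 101 etoposide, at a summit inside RN7SL1, the RNA of the signal recognition particle, which has many near-identical copies. How reads that align to several copies were handled is not given in the sources used here, and its part in these 3 values was not tested. The remaining members of the etoposide top 10 were PFKP, a phosphofructokinase gene (70 and 67), the potassium channel gene KCNJ15 (75 and 64), a second DUX4 peak (59 and 64) and SYTL2, a vesicle trafficking gene (73 and 61).

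The median scaled ratio of members was 0.989. It is held near 1 by the scaling, since members are 49.0% of the pairs that set the common ratio. The central 90% of members fell between 0.578 and 1.75. A scaled ratio of at least 2 was found in 187 members, 2.30%, against 3.20% of all shared pairs. A scaled ratio of at most 0.5 was found in 151, 1.86%, against 1.96% of all shared pairs. Between genes the shares were 4.40% and 1.90%, and at boundaries 1.06% and 3.43%. For 7852 members (96.5%) the 95% interval of the scaled ratio, from counting error in both pileups, included 1. It lay above 1 for 98 and below 1 for 185. The matching shares over all shared pairs are not given here, so these 2 counts are no result about the members. Intervals from pileups of this size are wide and are not adjusted for the number of members, so an interval that includes 1 does not show an equal pileup.

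The ratio cannot be read against height in these lists. Members were split by untreated pileup into 4 classes of equal size. In the class with the lowest pileups (median 11) the median scaled ratio was 1.29, and it was 1.04, 0.918 and 0.814 in the next classes, the last with a median pileup of 34. Of the 187 members at 2 or above, 158 were in the lowest class, and of the 151 at 0.5 or below, 101 were in the highest. The untreated pileup that made the classes is also the denominator of the ratio, and a weak untreated peak could be a member only if its etoposide partner was listed. Counting error and the choice of members therefore give falling medians by themselves, and the order of the classes is no result. Restricted to the 2839 members whose pileups summed to at least 40, 24 had a scaled ratio of at least 2 (0.845%, against 2.22% of such shared pairs) and 84 one of at most 0.5 (2.96%, against 2.91%).

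**Figure D4:**
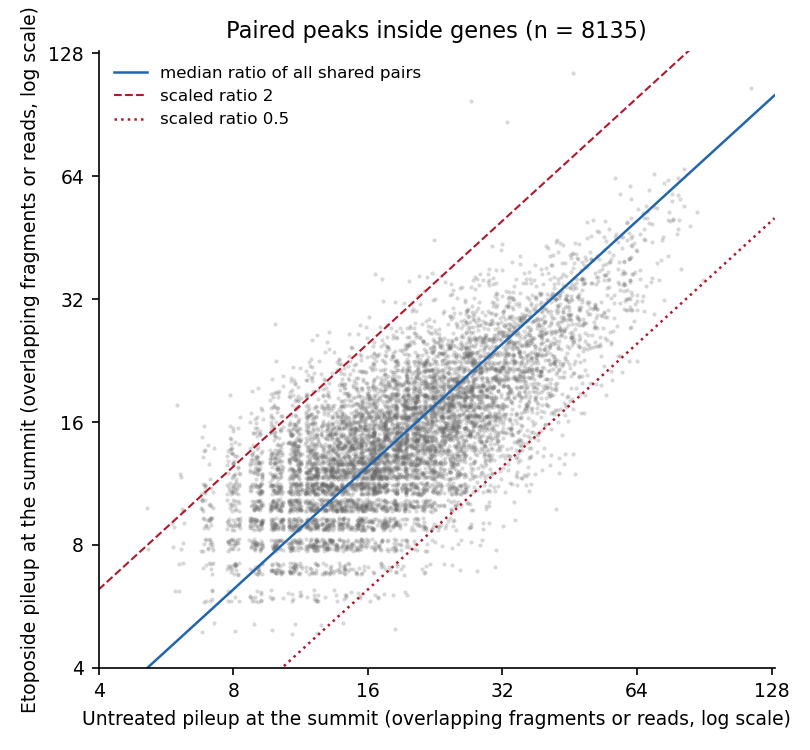
Etoposide (y axis) against untreated (x axis) pileup at the summit, in overlapping fragments or reads on log scales, 1 jittered point for each of the 8135 members. The solid line is the median ratio of all shared pairs, 0.778, and the broken lines are scaled ratios of 2 and 0.5; 187 members were on or above the upper and 151 on or below the lower line.

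The members with the highest scaled ratio among pairs summing to at least 40 were those at RPS29 (4.64, 95% interval 3.03 to 7.32) and LOC102724250 (3.62 and 3.04), over the repeated sequences named above. The background at the 2 LOC102724250 summits was also higher with etoposide, 3.27 untreated and 8.01 etoposide, and 3.37 and 7.96. Their fold ratios over background therefore differed less, 7.72 untreated and 10.1 etoposide, and 10.98 and 12.5. At RPS29 the background was 1.13 and 2.32 and the fold ratio 13.6 and 30.7. Next in scaled ratio were a second SYTL2 member and one in CDH18, a cadherin gene, each with 17 untreated and 36 etoposide. Both had a scaled ratio of 2.72 (interval 1.49 to 5.17). In these 2 the summits of the libraries were 412 and 390 bp apart, so the pileups were read at different places. At the low end ARHGAP35, a GTPase-activating protein, had 43 untreated and 10 etoposide (scaled ratio 0.299, interval 0.134 to 0.604). SUSD4, a complement regulator, had 48 and 12 (0.321), EIF4G3, a translation initiation factor, 35 and 9 (0.331), LRIG1, an inhibitor of EGF receptor signalling, 33 and 9 (0.351), and RNASEH1, which degrades RNA in RNA-DNA hybrids, 47 and 13 (0.356). The summits of these 5 pairs were 6 to 79 bp apart.

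Host genes were then read by pathway, with 14 gene lists, each set beside the 21.1% of all genes that were hosts and the 6.67 members per Mb of all gene interior. List intervals treat members as independent, although neighbours and genes share members. The lists had been chosen with earlier results of these data known, so they are descriptions and carry no test. In 11 of the 14 the density was above that of all gene interior. In 11 of the 14 lists the median gene also had more interior than the 25.1 kb of the median of all genes, so the share of hosts depends on gene size. Density allows for the length of interior, but it also differed with gene size. It was 3.42 per Mb in genes with up to 5 kb of interior, 7.83 at 100 to 200 kb and 4.66 above 500 kb. The single value of 6.67 is not matched to the gene sizes of a list.

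**Figure D5:**
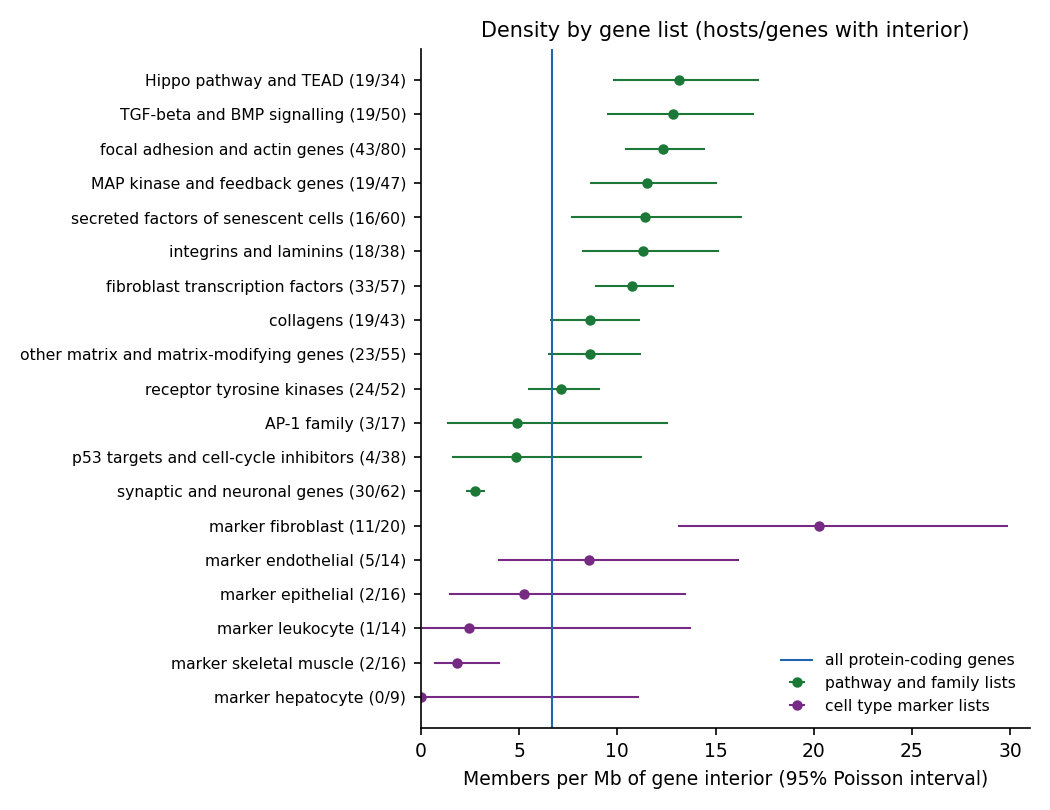
Members per Mb of gene interior (x axis) for the gene lists reported, with 95% Poisson intervals, and in brackets the host genes of the genes with interior; the vertical line is the value over all protein-coding genes, 6.67 per Mb. Hippo, TGF-beta and focal adhesion genes were at 12.3 to 13.1 per Mb, synaptic genes at 2.75 and the fibroblast markers at 20.3.

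The lists are taken in turn, and the intervals of the denser ones overlap, so their order is not a result. In the Hippo and TEAD list 19 of 34 genes were hosts, with 52 members and 13.1 per Mb (9.80 to 17.2). STK3, a kinase of the pathway, had 7 members, and WWTR1, which encodes the co-activator TAZ, had 6. YAP1, the co-activator that pairs with TEAD factors, had 5. The strongest YAP1 members had 66 untreated and 37 etoposide, and 64 and 42. The other 3 had 22 and 15, 18 and 13, and 15 and 21, and 4 of the 5 were lower in the etoposide library. Most shared pairs were lower there too, with a median ratio of 0.778. WWC2, an upstream regulator, had 5 members of 9 to 17 untreated.

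In the TGF-beta and BMP list 19 of 50 genes were hosts, with 12.8 per Mb (9.48 to 16.9). LTBP1 had 10 members, with untreated pileups of 16 to 40 and etoposide pileups of 13 to 31. The receptor genes BMPR1B and TGFBR3 and the signal transducer SMAD3 had 5 each. The SMAD3 members had 12, 21, 33, 37 and 12 untreated and 8, 10, 26, 14 and 10 etoposide. The member at 33 and 26 was the one beside the printed element. All 5 were lower in the etoposide library, as were most shared pairs, whose median ratio was 0.778. The scaled ratios of the SMAD3 members, in the same order, were 0.857, 0.612, 1.01, 0.486 and 1.07. BMPR1B had one of the stronger members of the list, with 70 untreated and 52 etoposide.

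Of 80 focal adhesion and actin genes 43 were hosts, with 146 members and 12.3 per Mb (10.4 to 14.5). LPP and PALLD had 14 each, ABLIM1, which binds actin, 12, and SVIL, which encodes supervillin, 8. PALLD members ran from 7 to 50 untreated and from 6 to 44 etoposide, and LPP members from 12 to 64 and from 9 to 45. Of 38 integrin and laminin genes 18 were hosts (11.3 per Mb, 8.21 to 15.2). LAMA2 had 10 members and ITGB5 6, of which the strongest had 58 untreated and 36 etoposide and the one highest in ratio 15 and 23. ITGA11, an integrin for collagen, had 4 and LAMB1 3.

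Both matrix lists had intervals that reached the value of all gene interior. Of 43 collagen genes 19 were hosts, with 59 members and 8.63 per Mb (6.57 to 11.1), and of 55 other matrix genes 23 were hosts, with 8.59 per Mb (6.46 to 11.2). COL5A2 had 12 members, COL4A2 6 and COL15A1 and COL21A1 5 each. The COL5A2 members had untreated pileups of 14 to 57 and etoposide pileups of 8 to 31. Like most shared pairs (median ratio 0.778), they were mostly lower in the etoposide library, with 1 of the 12 higher (21 and 22). Their scaled ratios ran from 0.367 to 1.35, with a median of 0.756. All 12 lay at least 47363 bp from a boundary of its 409 kb RefSeq outline, which is set by the outermost transcript ends. Where transcripts of COL5A2 start inside that outline was not analysed, so a shorter transcript may not reach these members. In the other matrix list FBN1, which encodes fibrillin of microfibrils, had 7 members, and ADAMTSL1 and ADAM12 had 5 each. ADAM9 had 4, with untreated pileups of up to 69 and etoposide pileups of up to 38.

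Of 52 receptor tyrosine kinase genes 24 were hosts, with 7.12 per Mb (5.47 to 9.10). IGF1R and ALK had 7 members each and EGFR and EPHB2 6 each. The EGFR members had 67, 27, 48, 12, 24 and 7 untreated and 49, 24, 21, 12, 15 and 9 etoposide. Their scaled ratios ran from 0.563 (48 and 21) to 1.65 (7 and 9), and are not read against height. Of 47 MAP kinase and feedback genes 19 were hosts (11.5 per Mb, 8.59 to 15.1), led by RASAL2, a Ras GTPase-activating protein, with 9. MAP3K5, a stress kinase, had 6, and NF1 and MAPK10 had 4 each.

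Among fibroblast transcription factors 33 of 57 genes were hosts, with 116 members and 10.8 per Mb (8.89 to 12.9). FOXP1 and GLIS3 had 11 members each and RUNX1 and KLF12 8 each. RUNX1, whose product binds beside AP-1 at many enhancers, had untreated pileups of 17, 48, 27, 33, 43, 34, 33 and 58. The paired etoposide pileups, in the same order, were 10, 21, 19, 26, 27, 15, 23 and 34. All 8 were lower in the etoposide library, as were most shared pairs, whose median ratio was 0.778. The scaled ratio was above 1 for 1 of the 8 (1.01), and these ratios are not read against height.

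Within the AP-1 family itself 3 of 17 genes were hosts: ATF7 with 2 members, and ATF3, an early stress response gene, and MAFK with 1 each. The ATF3 member had 40 untreated and 22 etoposide. Most AP-1 genes are short and offer little interior, 0.815 Mb in all, and the density of 4.91 per Mb has an interval of 1.34 to 12.6. Of 38 p53 targets and cell-cycle inhibitors 4 were hosts, with 4.83 per Mb (1.57 to 11.3). They were DDB2, a DNA damage recognition gene, with 2 members, and PMAIP1, E2F7 and PPM1D with 1 each. PMAIP1, which encodes the BH3-only protein NOXA, had 22 untreated and 21 etoposide. In the DDB2 members the etoposide pileups were 20 and 26 and the untreated ones 18 and 29.

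Of 60 genes for factors secreted by senescent cells 16 were hosts, with 29 members and 11.4 per Mb (7.63 to 16.4). NRG1, a ligand of ERBB receptors, had 6, ANGPT1 and IL15 3 each, and TIMP2, an inhibitor of matrix metalloproteinases, 2. The TIMP2 member chr17:78862151-78862461, at the element printed above, had 64 untreated and 56 etoposide, and the other had 30 and 23. The 3 IL15 members had untreated pileups of 8 to 19 and etoposide pileups of 11 to 16, with a median scaled ratio of 1.18 and a highest of 2.57. Over the list the median scaled ratio was 1.05. Of its 29 members 2 were at 2 or above and none at 0.5 or below, against 3.20% and 1.96% of all shared pairs. So few members cannot be read against those shares, and the counts are no result about the list.

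Synaptic and neuronal genes were the list with the lowest density, 2.75 per Mb (2.29 to 3.28), although 30 of 62 were hosts. Their median interior was 572 kb, against 25.1 kb over all genes. All genes with more than 500 kb of interior had 4.66 members per Mb. DLGAP1 had 14 of the 124 members, KCNQ5 and LRP1B 9 each and OPCML 7. LRP1B members were spread over 1900 kb, with untreated pileups of 8 to 29.

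The labelled cell type was checked with marker lists. Of 20 fibroblast markers 11 were hosts, with 25 members and 20.3 per Mb (13.1 to 29.9). FBN1 had 7, PRRX1, a mesenchymal homeobox gene, 4 and COL5A1 3. DDR2, FAP and COL3A1 had 2 each, and PDGFRB, TGFBI, TWIST1, THY1 and PDGFRA 1 each. The PRRX1 members had 31, 57, 28 and 9 untreated and 26, 35, 16 and 15 etoposide. PDGFRB had 63 untreated and 22 etoposide, a scaled ratio of 0.449. COL1A1, COL1A2, COL6A3, VIM, DCN, LUM, LOX and POSTN had no peak of either library in their interior. FN1 had 1 interior peak in each library but no member.

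Of 14 endothelial markers 5 were hosts (35.7%), with 8.54 per Mb (3.90 to 16.2), above the value of all genes and with an interval that overlaps the fibroblast one. VWF and TEK had 3 members each and FLT1, ERG and CDH5 1 each. Among 16 epithelial genes TP63 had 3 members and KRT8 1, at 5.26 per Mb (1.43 to 13.5). PTPRC was the one host of 14 leukocyte genes, with 8 untreated and 16 etoposide, at 2.47 per Mb (0.0624 to 13.7). Of 16 skeletal muscle genes DMD had 5 and RYR1 1, at 1.86 per Mb (0.682 to 4.05), and none of 9 hepatocyte genes was a host. A peak inside a gene does not show that the gene is expressed.

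Just inside the 1 kb limit were a member in ERLIN2 at 1.003 kb from a boundary, with 16 untreated and 10 etoposide and one in GRAP2 and TMA7B at 1.016 kb with 30 and 13. Just outside were shared peaks in ABCA1 at 0.988 kb with 23 and 9, in PDE3B and CYP2R1 at 0.984 kb with 9 and 12, and in ANKRD11 at 0.984 kb with 11 and 7. The overlap of a member with its partner had a median of 219 bp. Only 12 members overlapped by less than 10 bp, with a median untreated pileup of 10.5, and 21 untreated peaks inside genes missed an etoposide peak by at most 10 bp, with a median of 10. The etoposide summit was in the same gene and more than 1 kb from every boundary for 8125 of the 8135 members, and 231 members overlapped 2 or more etoposide peaks.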

How the data were processed

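CUT&RUN libraries were made with the suppliers' kits per the labels' protocols. Bowtie2, MACS2 and the builds hg38 and mm10 are named in the submitters' processing notes, without settings or versions; the peaks lie on human chromosomes, so hg38 applies. Each of the 2 deposited peak lists gives a score, a fold ratio over background, −log10 p and −log10 q values and a summit offset, which the authors' peak caller made. The deposited untreated list has 33491 peaks and the etoposide list 26590, of which 32550 and 25739 on chromosomes 1 to 22 and X were used. Library depth is not in the deposited lists and is unknown.

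The whole-number pileup at each summit was worked out from the deposited fold ratio, taken as (pileup + 1)/(background + 1), and the deposited −log10 p, taken as a Poisson upper tail. It fitted 100% of peaks within 0.001 in −log10 p. Each member was paired with the etoposide peak sharing most bp. Gene outlines, non-coding genes and sequences are from RefSeq (GRCh38.p14); outlines are the outermost transcript ends and differ in length from those of other annotations. Calls are scaled ratios of at least 2 or at most 0.5. Intervals are exact Poisson, Wilson binomial or, for ratios, exact binomial, at 95%. Named genes are the 10 hosts with the most members, the 5 densest, the 3 shortest, the 10 highest pileups of each library, 5 highest and 5 lowest ratios, the 2 deepest members, 4 genes a list and every marker host. Others were named after their values were seen, among them genes over 500 kb without a member, hosts of inner starts and the printed sequences. The values of 1 of the 14 gene lists and of a few genes are not reported here. Members and lists were chosen with earlier results of these data known. Recovery, pairing and placing were tested on simulated data. The motif count for all members needs a genome, which was not used here, so it covers only RefSeq start windows (none on chromosome 8). Python 3.11.15, numpy 2.4.6, pandas 2.3.3, scipy 1.17.1 and matplotlib 3.10.9 were used.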

Additional observations from a re-analysis of the deposited data

How the results depend on the processing

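No paired analysis was possible because each condition has 1 library, and no library could be left out. Members were 51.6%, 46.5% and 39.6% of the shared peaks with a boundary distance of 0, 3 and 10 kb. An overlap of at least 50% of both peaks left 5315 members, 48.1% of the shared peaks, with 1.84% at a scaled ratio of 2 or above and 1.51% at 0.5 or below. With −log10 q of at least 5 in both lists these shares were 1.51% and 1.41%. The 10000 strongest peaks of each list left 2805 members in 1951 host genes. Subtracting the background raised the share at 0.5 or below to 2.36%. The AP-1 element was found in 0% of 47 members within 25 bp and 20.8% of 24 within 100 bp, and, in a window chosen after seeing the data, in 50% of 4 within 240 bp. Other settings, among them the etoposide partner, the scaling and joining members within 500 bp (also chosen after seeing the data), kept these values within their intervals or, for counts, within 1.5 times. The number of lists denser than all gene interior was 11 of 14, and 10 with the 10000 strongest peaks, where integrins and laminins were below. The order of the lists also changed there: focal adhesion genes led with 2.19 times the density of all gene interior, and the Hippo list had 1.64 times. Counts of 5 to 20 limit the ratios of single members.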
